A study of Mus musculus with 42 samples.

Results

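Centrosome and primary cilium genes were followed in mouse colon cells and organoids after loss of BMP signaling in the stroma or after cytokine treatment. The genes were chosen by name: the Ift family (intraflagellar transport), the Bbs family (Bardet-Biedl syndrome genes), the Cep family (centrosomal proteins) and a set of transition zone and related genes (Tctn1 to Tctn3, the Nphp genes, Mks1 and Wdpcp). Of 19232 gene names in the tables, 70 carried such a name, and 68 of them had a mean normalized count of at least 10 in at least 1 of the 12 tables. The 70 were made up of 15 Ift, 8 Bbs, 39 Cep and 8 transition zone genes. Of these, 62 passed the minimum in all 12 tables. Cep112it and Cep112os1, noncoding genes at the Cep112 locus, passed it in none.

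RNA-seq was performed on 42 libraries of 3 kinds. Goblet cells marked by Muc2-mCherry and stromal cells marked by Gli1-tdTomato were sorted 30 days after tamoxifen, from each end of the colon (proximal and distal). Control mice carried Gli1CreERT2 with WT alleles (GWTM2 for goblet cells, GWTT for stromal cells). The other mice carried Gli1CreERT2 with Smad4-loxp (GS4M2, GS4T) or with Alk3-loxp (GA3M2, GA3T), where Alk3 is the BMP receptor gene listed as Bmpr1a. All of these mice, the controls included, received tamoxifen, and they were 2 to 4 months old and of both sexes. The driver acts in Gli1-expressing stromal cells, so the goblet cells are neighbors of the recombined cells and not their targets. Each group had 2 libraries. Colonic organoids from WT mice were left untreated or given 10 nM IL1α plus IL1β (IL-1) or 10 nM IL-17A for 12 or 72 h, with 3 libraries a group. Nothing in the labels says which libraries came from separate mice or cultures, so the p-values measure the spread between these libraries, which may be technical.

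Libraries held 15647603 to 20783127 reads in named genes for goblet cells, 14222902 to 23686940 for stromal cells and 14815170 to 17665812 for organoids. Of the organoid control libraries, replicates 2 and 4 at 12 h held the same reads as replicates 1 and 4 at 72 h, so only 4 control libraries were distinct. Replicates 3 and 4 of both treatments at 12 h, and control replicates 2 and 4 at 72 h, were close to each other, with a chi-square per gene of 3.21 to 3.57 against 21.1 to 254 for all other pairs of replicates. Libraries also differed in the sex of their source. In the organoid table of IL-1 at 12 h, Xist was 5.62 and 5.61 in control replicates 1 and 2 and 28830 in replicate 4.

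The primary cilium is a single, non-motile projection that grows from the older centriole of the centrosome when a cell leaves the division cycle. Intraflagellar transport moves cargo along it. Complex B (Ift20, Ift22, Ift27, Ift46, Ift52, Ift57, Ift74, Ift80, Ift81, Ift88 and Ift172) serves mainly outward transport, and complex A (Ift43, Ift122 and Ift140) serves the return. Bbs1, Bbs2, Bbs4, Bbs5, Bbs7 and Bbs9 encode subunits of the BBSome, an adaptor that carries membrane proteins out of the cilium, and Bbs10 and Bbs12 encode chaperonin-like proteins that help to build it. Mks1 and the Tctn and Nphp proteins belong to the gate at the cilium base and the segment above it. The Cep proteins are diverse: many build or duplicate the centriole, some tie the 2 centrioles together or anchor the cilium, and Cep55 acts at the midbody when daughter cells separate. In the gut wall, Hedgehog signaling from the epithelium is received by stromal cells that express Gli1, and this pathway runs through the cilium.

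Regulatory factors of the Rfx family bind the X-box, a paired motif found at many cilium genes. It was searched as a pair of 6-base parts with a spacer of 0 to 3 bases, on both strands, in RefSeq promoters that run from 250 bases before to 50 bases after the gene start (GRCm38.p6). The motif was chosen after the expression values were seen, and a match is a description of the letters, not a bound site. Of 70 members, 56 had a promoter entry, and 16 of these (28.6%) held a match, against 762 of 27025 promoters in all (2.82%). By family, 2 of 11 Ift, 3 of 8 Bbs, 6 of 31 Cep and 5 of 6 transition zone promoters held one. The stretches below, written 5′ to 3′ on the strand of the gene with each X-box in capitals (Ift22 and Ift57 hold a pair), belong to 6 genes with measured changes in stromal cells or organoids that are described further on.
Ift22 (chr5:136908087-136908149, plus strand): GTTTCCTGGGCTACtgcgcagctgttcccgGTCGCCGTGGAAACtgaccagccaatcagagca
Ift57 (chr16:49699204-49699276, plus strand): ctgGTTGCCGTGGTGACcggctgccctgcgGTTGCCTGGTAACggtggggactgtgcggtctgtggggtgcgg
Bbs7 (chr3:36613467-36613540, minus strand): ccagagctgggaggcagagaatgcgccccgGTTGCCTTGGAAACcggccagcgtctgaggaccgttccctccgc
Cep41 (chr6:30693836-30693910, minus strand): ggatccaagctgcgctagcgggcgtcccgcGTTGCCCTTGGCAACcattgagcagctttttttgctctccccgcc
Cep112 (chr11:108425152-108425225, plus strand): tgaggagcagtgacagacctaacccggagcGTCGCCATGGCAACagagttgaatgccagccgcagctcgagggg
Tctn2 (chr5:124598657-124598730, plus strand): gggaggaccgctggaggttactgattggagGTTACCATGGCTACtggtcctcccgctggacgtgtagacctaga
The end of the motif nearest to the start lay 19 bases before the RefSeq start of Ift22, 47 before that of Ift57, 48 before that of Tctn2, 70 before that of Cep112, 107 before that of Bbs7 and 116 before that of Cep41.

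The genes were measured at different levels in the 3 kinds of control library. Levels between genes are given as RPKM, which scales reads by exon length and by the depth of the library, and each is a mean of 4 libraries. The Bbs family had a median of 2.38 in stromal cells, 0.959 in organoids and 0.579 in goblet cells. The Ift family had medians of 5.64, 3.61 and 2.82 in the same order. For the Cep family the medians were 2.67, 3.23 and 3.23, and for the transition zone genes 3.32, 1.78 and 1.44. These 3 kinds of table were normalized separately, so the levels are a description and were not tested.

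Single genes departed far from their family. Cep170, which encodes a protein of the appendages of the older centriole, stood at 6.10 in stromal cells, 0.136 in organoids and 0.0239 in goblet cells, and its paralog Cep170b at 7.62, 29.4 and 29.5. Ift57 stood at 6.46 in stromal cells and 0.276 in organoids, and the goblet cell controls had no row for it in the Smad4 tables. Cep55 showed the opposite order, at 0.394 in stromal cells, 15 in organoids and 7.28 in goblet cells. Ift20, whose product also works at the Golgi, was among the highest in all 3, at 23.6, 19.6 and 29.5. Cep164, a distal appendage protein needed to start a cilium, differed little, at 4.90, 5.45 and 5.26. Foxj1, the master gene of motile cilia, had no row in the organoid tables and lay between 1.83 and 11.5 normalized counts in the goblet cell tables that list it. In stromal controls it was 15.5 and 19.5 in the proximal and 15.65 and 16.46 in the distal colon. In GS4T it was 1.84 and 3.99 in the proximal colon (log2 fold change -2.29, limma adjusted p = 0.0957). In the distal colon it was 2.66 and 1.17 in GS4T and its mean was too low to be tested.

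**Figure D1:**
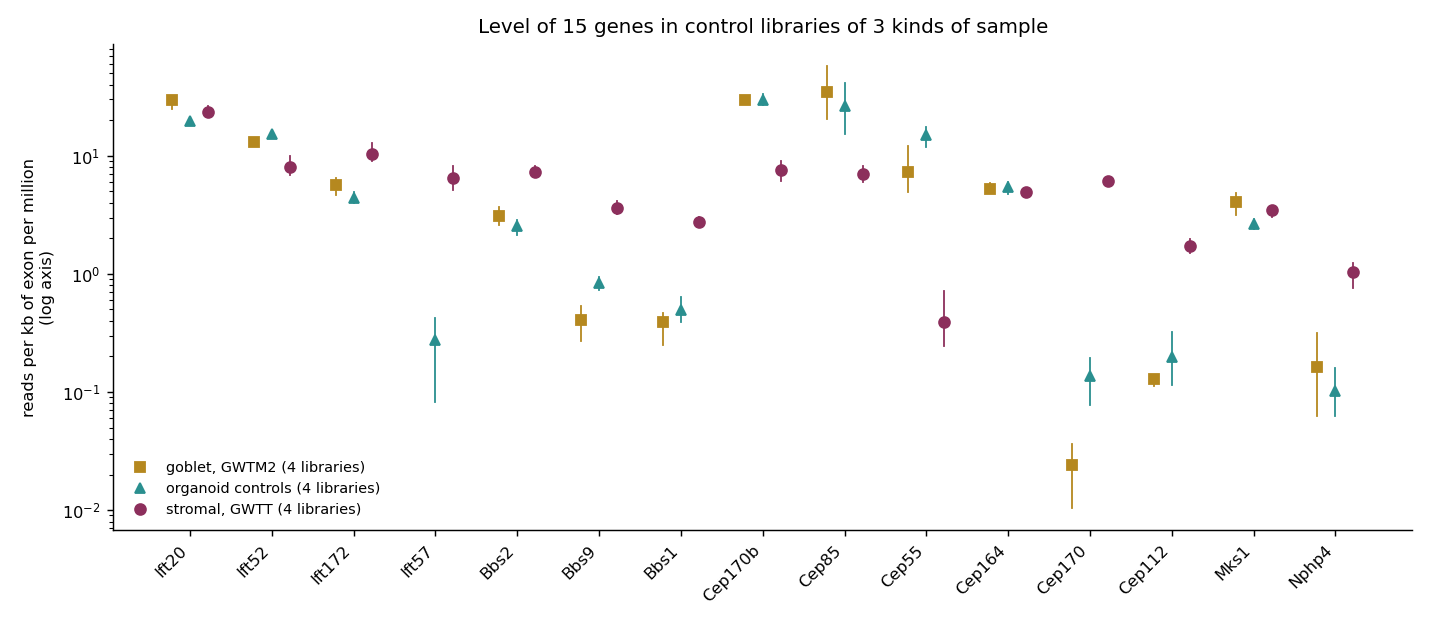
Level of 15 genes (RPKM, log axis) in the control libraries of goblet cells, organoids and stromal cells; points are means of 4 libraries and lines run from the lowest to the highest. Cep170, Ift57, Bbs9 and Bbs1 were highest in stromal cells, and Cep55, Cep85 and Cep170b were lowest there.

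The first question was whether goblet cells changed these genes when the stroma around them lost Smad4 or Alk3. No member was called in any of the 4 goblet cell tables. A gene is called here when its Benjamini-Hochberg adjusted p over all tested genes was below 0.05 in limma. In all genes, 0.325% were called in GS4M2 against GWTM2 of the proximal colon, 0.0% in the distal colon, 0.0899% in GA3M2 against GWTM2 of the proximal colon and 0.0% in the distal colon. At an unadjusted p under 0.05 there were 3 of 64, 4 of 63, 5 of 64 and 8 of 64 members. Of all genes, 16.7%, 10.6%, 15.3% and 11.7% lay under it. edgeR called 0 members in each table, and DESeq2 called 0, 0, 2 and 1. Over all genes edgeR called 52, 0, 14 and 0, and DESeq2 called 569, 253, 516 and 353. The shares over all genes rested on single libraries. In distal GS4M2 and distal GA3M2, 458 and 777 genes were called without GWTM2 replicate 1, with 0 and 1 members among them. In proximal GA3M2, 1809 genes were called without GA3M2 replicate 1, with 5 members among them, all lower (Nphp4, Cep250, Ift80, Cep350 and Cep290), and the replicate block called 952 genes and 2 members. None of the tested differences between the segments was called among members, 0 of 63 for both genotypes, with 0.0% of all genes called in each.

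Family medians stayed near 0 on the log2 scale. The Ift medians in the 4 tables, in the order above, were -0.01, -0.04, 0.18 and 0.05, and the Cep medians were 0.02, 0.11, -0.19 and -0.10. The Bbs medians were -0.25, 0.26, 0.15 and 0.34. The transition zone medians were 0.01, 0.12, -0.18 and -0.08.

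The GA3M2 libraries also differed in markers of cell types. In the proximal colon Muc2, the gene of the sort, fell from 179600 and 224200 to 18750 and 14040 (log2 fold change -3.63, adjusted p = 0.0464), and Lyz2, a gene of macrophages and other myeloid cells, rose by 8.61. The summed normalized count of 9 goblet cell markers was 565000 to 628000 in proximal GWTM2 and 196000 to 253000 in GA3M2. That of 8 immune markers was 46.8 to 56.7 and 453 to 672, and that of 9 stromal markers was 38.4 to 49.1 and 147 to 572. In the distal colon the goblet sum was 614000 to 1110000 and 253000 to 424000, and the immune sum was 45.9 to 126 and 518 to 596. Their part in the GA3M2 values below was not tested.

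Several single genes had groups that did not overlap without passing the test. Over all genes, the groups did not overlap for 22.1% to 26.1% in each direction in the goblet cell tables. Separate groups alone therefore did not set these members apart from other genes. Nphp4, a protein of the cilium gate (chr4:152476706-152563183, plus strand), had normalized counts of 21.0 and 34.2 in proximal GWTM2 and 0 reads in both GA3M2 libraries. Against a floor of 3 reads per library this is at least 9.1-fold lower (adjusted p = 0.14). The same gene was 9.03 and 6.79 in distal GWTM2 and 23.7 and 25.7 in distal GS4M2 (adjusted p = 0.43). The counts were low in every one of these libraries, and the direction was not the same in both comparisons.

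Cep83os, a noncoding gene that starts beside Cep83 on the other strand, was 113 and 126 in distal GWTM2 and 319 and 441 in distal GA3M2 (log2 fold change 1.64, SE 0.25, adjusted p = 0.24). Cep85, a centrosomal protein gene that was high in these cells, was 2719 and 1933 in proximal GWTM2 and 3975 and 4494 in proximal GA3M2 (0.88, adjusted p = 0.21). Cep126 was 238 and 200 in distal GWTM2 and 125 and 96.5 in distal GS4M2 (-0.98, adjusted p = 0.39). In GWTM2, replicate 1 of each segment was female by Xist (20210 to 21760) and every other goblet cell library was male. With sex as a term, which leaves 1 male control library to compare with, the members called were 0 in 3 of the tables and Cep83os (1.57) in distal GA3M2. Cep83os was also called without GWTM2 replicate 1 (1.57) or replicate 2 (1.72). Over all genes, sex as a term gave 141 and 435 calls in proximal and distal GS4M2, and 82 and 822 in proximal and distal GA3M2. For the core genes the groups lay close together. Cep164 was 1004 and 847 in proximal GWTM2 and 958 and 965 in GS4M2, and Ift88, a core complex B subunit, was 191 and 166 against 181 and 182.

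In the families, the largest shifts with separate groups were modest. In proximal GS4M2 these were Ift122 (0.71), Ift80 (-0.25), Bbs4 (-0.67) and Cep170 (1.01), and in distal GS4M2 they were Ift20 (0.33), Ift52 (-0.22), Bbs12 (0.76), Bbs2 (-0.25) and Tctn3 (-0.57), all log2 fold changes with adjusted p between 0.22 and 0.69. In proximal GA3M2 they were Ift43 (0.47), Ift80 (-1.28), Bbs5 (0.50), Bbs1 (-0.41) and Cep250 (-0.81), and in distal GA3M2 they were Ift80 (-0.52), Bbs12 (1.51) and Cep72 (-0.91). Ift57 in distal GA3M2 rested on a few reads, at 5.76 and 1.09 in GWTM2 and 17.6 and 20.1 in GA3M2.

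**Figure D2:**
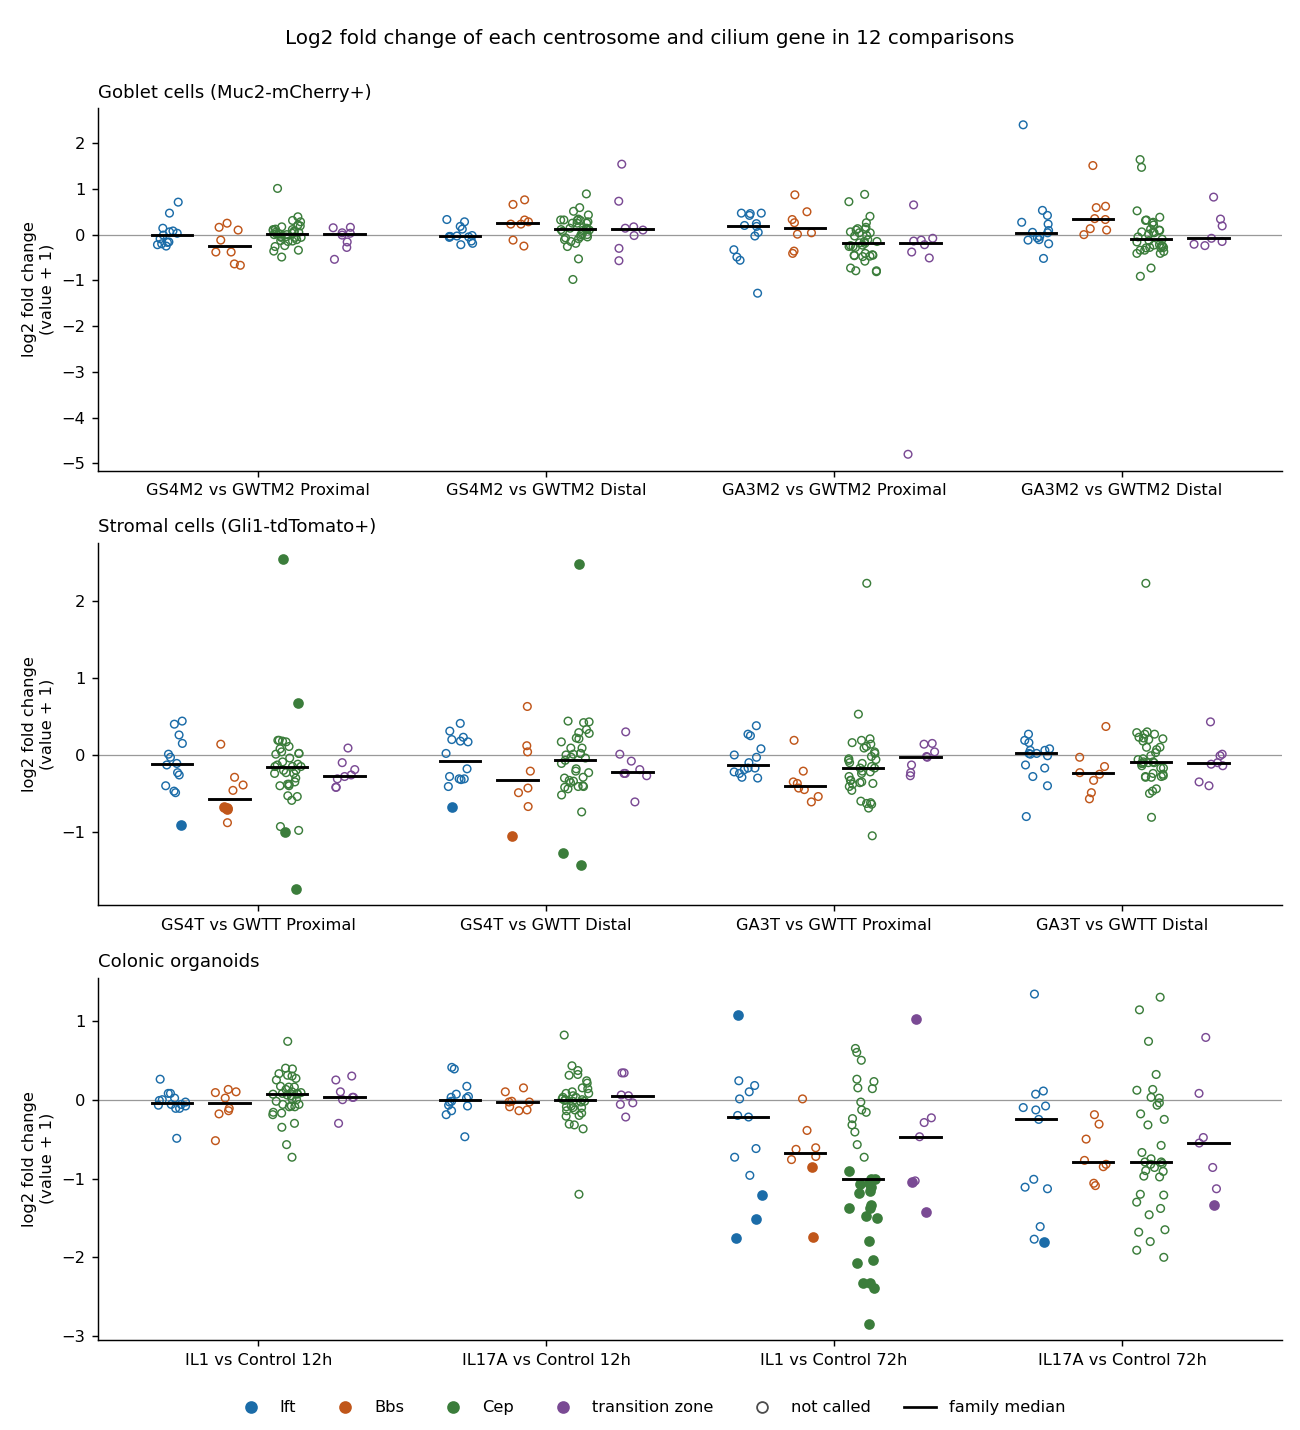
Log2 fold change of each tested member on the log2(normalized count + 1) scale, against its control, by family, in the 12 comparisons; filled points are called, open points are not, and black lines are family medians. Filled points appear only in the GS4T tables and in organoids at 72 h, where the Cep median was -1.01 with IL-1; the open point at -4.80 is Nphp4, at 0 reads in GA3M2.

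In stromal cells the deleted genes were checked first. Smad4 was 1604 and 1673 normalized counts in proximal GWTT and 706 and 835 in proximal GS4T (log2 fold change -1.09, SE 0.12, adjusted p = 0.01), and -0.96 in the distal colon (adjusted p = 0.042). Bmpr1a was 2960 and 3220 in proximal GWTT and 2233 and 1842 in GA3T (-0.61, adjusted p = 0.12), and -0.69 in the distal colon (adjusted p = 0.101). Gli1, the driver gene of the sort, was 1481 and 23.9 in the proximal GS4T libraries and 1292 and 34.7 in the proximal GA3T libraries, against 642 and 1597 in proximal GWTT. Replicate 2 of both proximal knockout groups was thus far below the rest in Gli1. In the distal colon Gli1 was called lower in GS4T, at 875 and 1096 against 1634 and 1353 in GWTT (-0.60, SE 0.16, adjusted p = 0.0452). In bulk samples, fewer cells of a type and less RNA per cell cannot be told apart.

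After Smad4 loss a few Bbs, Ift and Cep genes were lower in stromal cells, and Cep55 was higher. In the proximal colon 8 of 67 members were called, 2 higher and 6 lower, against 15.6% of all genes in either direction and 7.24% lower. In the distal colon 5 of 67 were called, 1 higher and 4 lower, against 23.2% of all genes and 11.1% lower. The members' share of calls, 11.9% and 7.46%, was thus below that of all genes in both segments. Of the 8 Bbs genes, 3 were called in the proximal colon and 1 in the distal, all lower.

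The called Bbs genes are BBSome subunits. Bbs1 (chr19:4886878-4906628, minus strand) was 391 and 350 in proximal GWTT and 229 and 230 in proximal GS4T (log2 fold change -0.69, SE 0.16, adjusted p = 0.047). Bbs2 was 397 and 447 against 275 and 243 (-0.70, SE 0.16, adjusted p = 0.047). Bbs9 (chr9:22475715-22888280, plus strand) was 363 and 334 against 221 and 213 (-0.68, SE 0.16), with an adjusted p of 0.05 that lay just under the threshold. Every GS4T library was below every GWTT library for each of the 3 genes, as for 31.4% of all genes in the proximal colon. All 3 were close to the threshold: edgeR gave adjusted p = 0.053, 0.051 and 0.057 for Bbs1, Bbs2 and Bbs9, and of 13 alternatives 6, 6 and 4 kept the call, with the sign the same in all 13. GWTT replicate 1 of the proximal colon was male by Xist and the other 3 libraries of that table female, and sex as a term, like the replicate block, kept 3 of the 8 proximal calls.

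In the distal colon Bbs9 fell further, from 364 and 416 to 172 and 204 (log2 fold change -1.05, SE 0.19, adjusted p = 0.0155). Bbs1 was 322 and 322 against 191 and 272 there (-0.49, adjusted p = 0.16), and Bbs2 was 393 and 370 against 187 and 308 (-0.67, adjusted p = 0.12). The family median was -0.57 in the proximal colon and -0.32 in the distal, with 1 of 8 and 3 of 8 genes above 0. The highest of the family was Bbs5 in the distal colon, at 117 and 87.1 against 150 and 164 (0.63, adjusted p = 0.15). The lowest in the proximal colon was Bbs10, at 43.4 and 44.1 against 36.0 and 14.95 (-0.88, adjusted p = 0.32). By library the median log2 ratio of the family to its control mean was -0.41 and -0.63 in the proximal GS4T libraries and -0.55 and -0.21 in the distal ones.

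Of the Ift genes, 1 of 14 was called in each segment, and not the same one. Ift57 (chr16:49699233-49765126, plus strand), a complex B subunit, fell in the proximal colon from 321 and 388 to 211 and 166 (log2 fold change -0.91, SE 0.21, adjusted p = 0.0481). In the distal colon it was 276 and 239 against 229 and 188 (-0.31, adjusted p = 0.33). Ift81 (chr5:122550204-122614518, minus strand), which binds tubulin together with Ift74, fell in the distal colon from 464.5 and 464.7 to 288 and 292 (-0.68, SE 0.15, adjusted p = 0.0256). In the proximal colon Ift81 was 420 and 410 against 326 and 302 (-0.40, adjusted p = 0.12). The test of the segment difference itself called 0 of 67 members for GS4T, against 0.195% of all genes, so neither gene was shown to differ between segments. The Ift medians were -0.12 and -0.08. Ift20 was 625 and 564 against 746 and 678 in the proximal colon (0.26, adjusted p = 0.21), Ift22 was at 0.44 there, Ift52 at 0.41 in the distal colon, Ift88 at -0.23 and 0.20, and Ift140 at -0.26 and -0.41.

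The Cep family moved in both directions. Cep55 (chr19:38055011-38074423, plus strand) rose from 15.5 and 14.4 to 83.0 and 102 in the proximal colon (log2 fold change 2.54, SE 0.40, adjusted p = 0.019) and from 11.7 and 33.9 to 170 and 79.9 in the distal colon (2.48, SE 0.64, adjusted p = 0.041). Cep170b, which encodes a microtubule-binding protein, rose in the proximal colon from 834 and 989 to 1320 and 1600 (0.68, adjusted p = 0.043). Cep85l (chr10:53273443-53379947, minus strand), which encodes a pericentriolar protein, fell from 968 and 975 to 533 and 439 (-1.0, SE 0.14, adjusted p = 0.0149) and, in the distal colon, from 836 and 1049 to 388 and 382 (-1.28, SE 0.15, adjusted p = 0.0049). Of the exons of Cep85l, 7.26% overlap genes on the other strand, and whether reads were counted by strand is not stated.

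Cep295nl fell in the proximal colon from 90.0 and 77.9 to 24.9 and 23.9 (log2 fold change -1.74, SE 0.36, adjusted p = 0.037). Cep112 fell in the distal colon from 151 and 198 to 76.2 and 52.8 (-1.43, SE 0.32, adjusted p = 0.028), and it was 177 and 182 against 101 and 80.7 in the proximal colon (-0.98, adjusted p = 0.057). Core centriole genes lay near 0. Cep152, which recruits the kinase that starts centriole duplication, was 214 and 189 against 208 and 200 in the proximal colon, and Cep164 was 866 and 837 against 904 and 708. Cep290, a gate protein, was at -0.24 and 0.43 in the 2 segments. The genes called in both segments were Bbs9, Cep55 and Cep85l, of 8 proximal and 5 distal calls. The overlap of calls over all genes was not counted, so this is a description of the members only.

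No transition zone member was called in GS4T. The family medians were -0.27 and -0.21, and Tctn2 in the proximal colon (-0.42, adjusted p = 0.13) and Tctn3 in the distal colon (-0.61, adjusted p = 0.10) were the lowest. Other genes of the same compartments were taken from lists that hold none of the members. Of 7 BBSome partners and of 10 cilium motors, 0 were called in either segment. Of 9 transport subunits without an Ift name, 1 was lower in the proximal colon and 0 were called in the distal. The same held for 27 centriole and centrosome genes without a Cep name, with 1 and 0. Of 17 further gate and inversin genes, 2 were lower in the proximal colon and 6 in the distal, where the share of all genes lower was also larger (7.24% and 11.1%). The segment difference was called for 0 of the 17, and for 0 of the 15 cilium membrane and Hedgehog genes. Cc2d2a, a gate protein, was lower in both (-0.99 and -0.98), and Tmem107, a gate membrane protein, fell by 1.27 on the log2 scale in the distal colon. Of 15 cilium membrane and Hedgehog genes, 4 were lower in the proximal colon, and 9 were lower and 1 was higher in the distal colon. Hhip, a Hedgehog target and inhibitor, was at -2.93 in both segments, and Gpr161, a ciliary receptor that restrains the pathway, was at -1.49 in the distal colon. Rfx2 fell in the proximal colon (-1.12, adjusted p = 0.023).

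**Figure D3:**
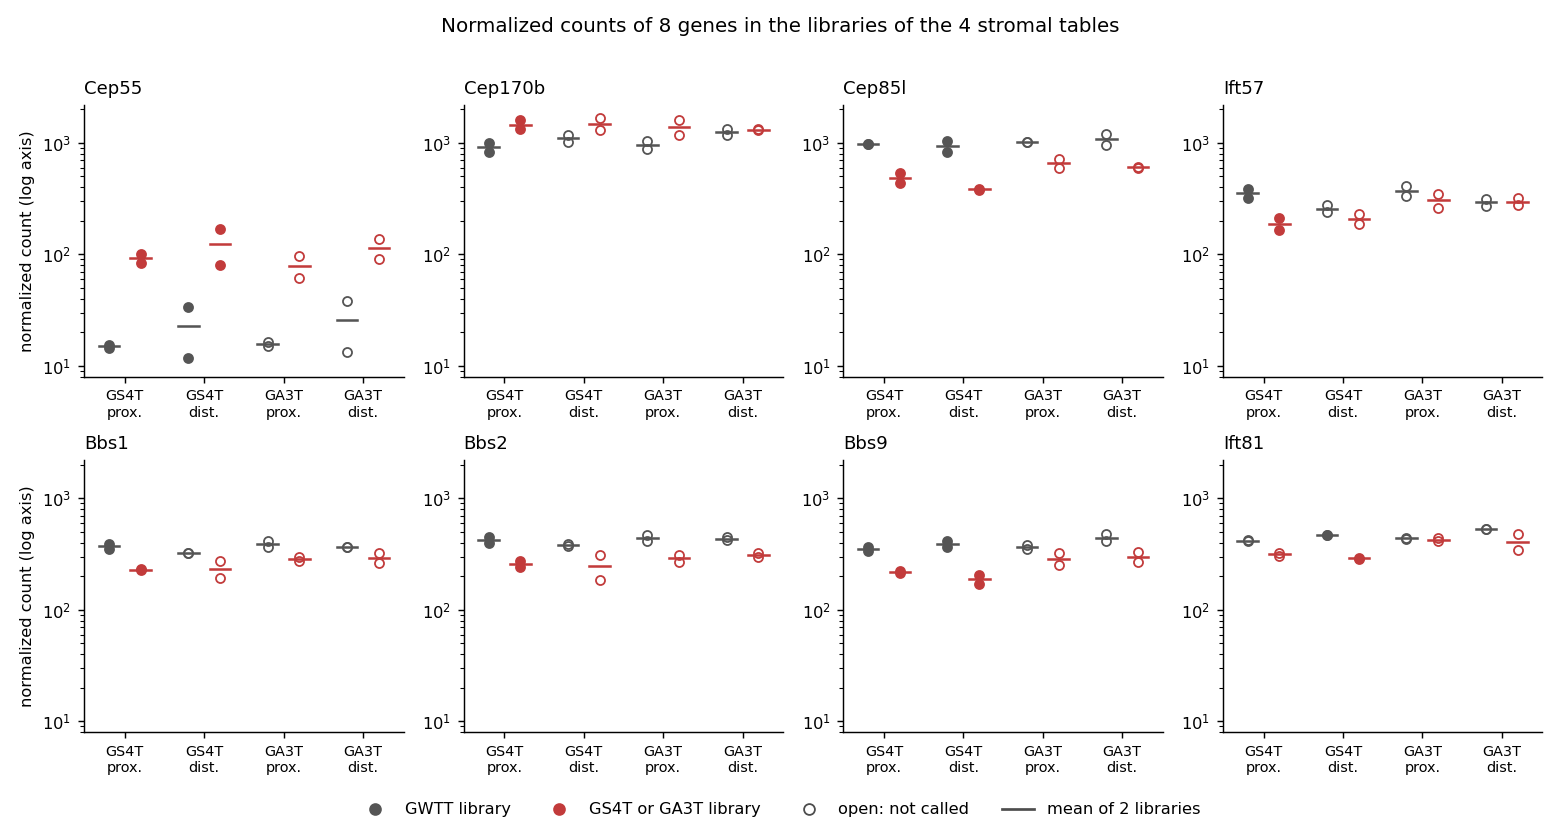
Normalized counts (log axis) of 8 genes in each library of the 4 stromal tables, GWTT in grey and GS4T or GA3T in red, with the mean of 2 libraries as a line; filled points are called. Cep55 was above and Cep85l below its controls in all 4 tables, and only the GS4T tables hold filled points.

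These differences stood beside others in the same libraries. The summed normalized count of 24 mitosis genes was 1520 to 1790 in proximal GWTT and 5230 to 6280 in proximal GS4T, and 1830 to 2970 and 5170 to 10700 in the distal colon. Of the 24, 22 and 14 were higher, with a median log2 fold change of 2.04 and 1.79. Of 9 genes for cilium disassembly with a test, 4 and 2 were higher, among them the mitotic kinases Aurka and Plk1. The sum of 7 epithelial markers was 193 to 7160 in proximal GWTT and 17500 to 22400 in proximal GS4T, and 783 to 2370 and 9410 to 18900 in the distal colon. The sum of 8 immune markers was 2950 to 4050 and 12300 to 17500 in the proximal colon, and 6310 to 8570 and 14600 to 23900 in the distal colon. Of the 7 epithelial markers, 1 was called higher in the proximal colon and 6 in the distal, and of the 8 immune markers 5 and 4. Their part in the cilium and centrosome differences was not tested. Leaving out 1 library left 1 in its group. Without either proximal GS4T library, or without either distal GWTT library, fewer members were called, and fewer genes in all as well.

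After Alk3 loss no member was called in stromal cells, 0 of 67 in the proximal and 0 of 68 in the distal colon, against 0.358% and 0.0% of all genes. At an unadjusted p under 0.05 there were 9 and 6 members, against 21.6% and 18.7% of all genes. edgeR called 0 in both, and DESeq2 called 3 (Cep55, Cep85l and Cep135) and 2 (Cep55 and Cep85l). Over all genes DESeq2 called 1607 of 15346 and 1138 of 15414, and edgeR 0 in both. The shares over all genes thus depended on the fit, and the replicate block called 257 and 62 genes. In the proximal colon replicate 1 of both groups was male by Xist (7.62 and 3.01) and replicate 2 female (28750 and 19300). Sex as a term was therefore the same fit as the block there. Cep55 was 16.3 and 15.1 in proximal GWTT and 61.1 and 97.5 in proximal GA3T (log2 fold change 2.23, SE 0.45, adjusted p = 0.10), and 13.4 and 38.6 against 90.2 and 136 in the distal colon (2.23, SE 0.59, adjusted p = 0.17). Cep85l was 1018 and 1025 against 718 and 594 (-0.64, adjusted p = 0.11) and 954 and 1194 against 613 and 601 (-0.81, adjusted p = 0.12). The GS4T and GA3T tables share their GWTT libraries, so these values are not independent of those for Smad4. The mitosis sum was 1600 to 1890 in proximal GWTT and 4750 to 6110 in proximal GA3T, and 2080 to 3380 and 7030 to 9850 in the distal colon. The epithelial sum was 203 to 7530 and 7670 to 11500 in the proximal, and 894 to 2690 and 6740 to 14700 in the distal colon. The immune sum was 3100 to 4250 and 9570 to 17800, and 7180 to 9770 and 10600 to 12600 in the same order. The part of these in the values above was not tested.

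Every GA3T library was below every GWTT library for 30 of 67 members in the proximal colon, against 27.5% of all genes, and for 20 of 68 in the distal colon, against 26.8%. In the Bbs family this held for 5 of 8 and 3 of 8 genes, and the family medians were -0.40 and -0.24. Bbs2 was 418 and 470 against 271 and 309 in the proximal colon (-0.61, adjusted p = 0.15), and Bbs9 was 415 and 474 against 328 and 271 in the distal colon (-0.57, adjusted p = 0.20). No segment difference was called for GA3T, 0 of 67 members against 0.0% of all genes.

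In organoids the question was whether the cytokines act directly on these genes in epithelium, and after how long. At 12 h no member was called with either cytokine, 0 of 64 each, against 0.0542% of all genes with IL-1 and 0.0385% with IL-17A. At an unadjusted p under 0.05 there was 1 member each, against 4.38% and 5.14% of all genes. edgeR and DESeq2 called 0 members, and over all genes edgeR called 2 and 4 and DESeq2 73 and 97. Libraries of the same number deviated together at 12 h, with correlations of 0.619 to 0.637. The replicate block, which compares within the 2 numbers that control and treated groups share, called Cep85 with IL-1 (0.34), and Cep85 (0.38), Ift22 (0.73) and Ift88 (-0.55) with IL-17A. Over all genes it called 557 and 1002 instead of 7 and 5. The 4 family medians lay between -0.04 and 0.07 with IL-1 and between -0.03 and 0.05 with IL-17A. Cep55 was 553, 640 and 796 in controls and 499, 818 and 816 with IL-1. The groups did not overlap for Tctn1 (0.30) and Cep70 (-0.35) with IL-1, among others, nor for Cep63 (0.37) and Cep250 (-0.32) with IL-17A. Over all genes this held for 4.22% to 5.91% in each direction.

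Cep83os, Cep131 and Cep85, chosen for mention after their values were seen, differed between libraries of low and high Xist at 12 h. In the IL-1 table Cep83os was 173 and 209 in the control libraries with low Xist and 33.6 in that with high Xist, and 153 against 38.7 and 44.7 in the treated libraries. Cep131 was 403 and 444 against 221 in the same controls, and Cep85 was 1431 and 1286 against 3391. The spread of these genes within a group was therefore large, and none of the 3 was called without the replicate block.

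At 72 h of IL-1, many Cep genes were lower than in the 72 h controls. Those controls were not clearly distinct from the 12 h controls. At 72 h of either cytokine, its effect and that of time in culture therefore cannot be told apart. Of 63 members 29 were called, 27 lower and 2 higher, against 38.4% of all genes in either direction. The members lower made 42.9%, against 18.9% of all genes. The Cep family held most of them: 20 of 35 genes (57.1%) were lower and none was higher, with a median of -1.01 on the log2 scale. Of 13 Ift genes, 3 were lower and 1 was higher (median -0.22). Of 8 Bbs genes 2 were lower (-0.67), and of 7 transition zone genes 2 were lower and 1 was higher (-0.47). Beside these, a list of 27 further centriole and centrosome genes without a Cep name had 19 lower and none higher (median -0.94), among them Plk4, the kinase that starts centriole duplication (-2.47), and Nin, an anchor of microtubules (-2.12).

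Among the Cep genes the largest fall was that of Cep128, of the subdistal appendages (chr12:90998492-91384409, minus strand). It was 222, 240 and 290 normalized counts in controls and 32.5, 63.8 and 18.7 with IL-1 (log2 fold change -2.84, SE 0.44, adjusted p = 0.004). Cep97, which caps the growing centriole (chr16:55899888-55934855, minus strand), was 145.5, 145.8 and 150 in controls and 30.1, 34.9 and 21.9 with IL-1 (-2.33, SE 0.30, adjusted p = 0.0029). Cep55 was 607, 737 and 763 in controls and 244, 213 and 50.5 with IL-1 (-2.33, SE 0.55, adjusted p = 0.014). Cep126 was 66.5, 90.5 and 85.7 in controls and 8.43, 50.8 and 6.58 with IL-1 (-2.39, SE 0.71, adjusted p = 0.032). For each of the 4 genes every treated library was below every control, as for 27.8% of all genes. Replicate 2 of IL-1 was the highest of the treated libraries for Cep97, Cep126 and Cep128.

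Further Cep genes that fell are known for work at the centriole. Cep192, a scaffold for the starting kinase, was 960, 1185 and 1252 in controls and 474, 425 and 308 with IL-1 (log2 fold change -1.50, adjusted p = 0.0032). Cep152, which works at the same step, was 290, 407 and 393 against 118, 197 and 122 (-1.34, adjusted p = 0.0088). Cep76 and Cep78, which restrain or tune duplication, were at -2.03 and -2.07, and Cep135 and Cep295, of the centriole wall, at -0.91 and -1.11. The linker genes Cep250 and Cep68, whose products hold the 2 centrioles together, were at -1.01 and -1.07. The satellite genes Cep131 and Cep72 were at -1.47 and -1.19, and Cep41 and Cep162, of the cilium axoneme, at -1.37 and -1.06. Cep290 was 227, 427 and 362 against 125, 225 and 154 (-1.0, adjusted p = 0.04).

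Cep164, Cep83 and Cep89, which are known from the distal appendages of the older centriole, were not called. Cep164 was 914, 715 and 756 in controls and 752, 720 and 646 with IL-1 (log2 fold change -0.16, SE 0.16), Cep83 was at -0.03 and Cep89 at -0.32. Cep350 was 1746, 1887 and 1948 against 1997, 2025 and 2549 (0.23), and Cep170b, among the most abundant members, was at 0.15. Cep95 had separate groups, at 171, 211 and 209 against 211, 236 and 261 (0.26, adjusted p = 0.34).

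The Ift genes split. Ift27, a small GTPase of complex B (chr15:78159463-78174107, minus strand), fell from 185, 191 and 226 to 45.8, 111 and 38.4 (log2 fold change -1.76, SE 0.41, adjusted p = 0.013). Ift80 fell from 198, 187 and 261 to 65.0, 95.7 and 64.7 (-1.51, adjusted p = 0.0061), and Ift74 fell by 1.21 on the log2 scale. Ift22, the other small GTPase-like subunit (chr5:136908150-136915404, plus strand), rose from 218, 159 and 133 to 512, 253 and 335 (1.07, SE 0.31, adjusted p = 0.029). Other subunits of the same complex had values near those of the controls. Ift52 was 650, 626 and 595 against 680, 656 and 666 (0.10), Ift172 was at 0.24 and Ift20 at 0.01. Ift140 of complex A was 428, 538 and 440 against 132, 431 and 240 (-0.96, adjusted p = 0.086), and Ift88 was at -0.73 (adjusted p = 0.13). Of 9 subunits of the transport complexes without an Ift name that were tested, 2 were lower (Ttc30a1 and Ttc21b) and 1 was higher (Hspb11).

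Of the BBSome subunits, Bbs9 fell from 88.7, 88.6 and 67.8 to 21.7, 36.9 and 16.5 (log2 fold change -1.74, SE 0.39, adjusted p = 0.012), and Bbs7 from 254, 230 and 191 to 114, 163 and 97.6 (-0.86, adjusted p = 0.036). Bbs4 was 61.2, 61.0 and 64.5 against 50.6, 78.7 and 61.4 (0.01). Mkks, a chaperonin-like partner of Bbs10 and Bbs12, fell by 1.38. Of the transition zone genes, Tctn2 fell from 179, 176 and 137 to 49.4, 90.7 and 47.2 (-1.43, SE 0.33, adjusted p = 0.013). Tctn1 (chr5:122237848-122264460, minus strand) rose from 114, 125 and 132 to 229, 274 and 259 (1.03, SE 0.21, adjusted p = 0.0085). Of its exons, 25.5% overlap genes on the other strand, and the strand of counting is not stated. Mks1 (-0.23) and Wdpcp (-1.03) were not called. Of 17 further gate and inversin genes 5 were lower and none was higher (median -1.26), and of 5 Rfx factors 3 were lower, Rfx3 by 2.12 on the log2 scale. The X-box was found in 3 of 23 promoters of the lower members, in both of those that rose and in 10 of 28 of the members not called.

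**Figure D4:**
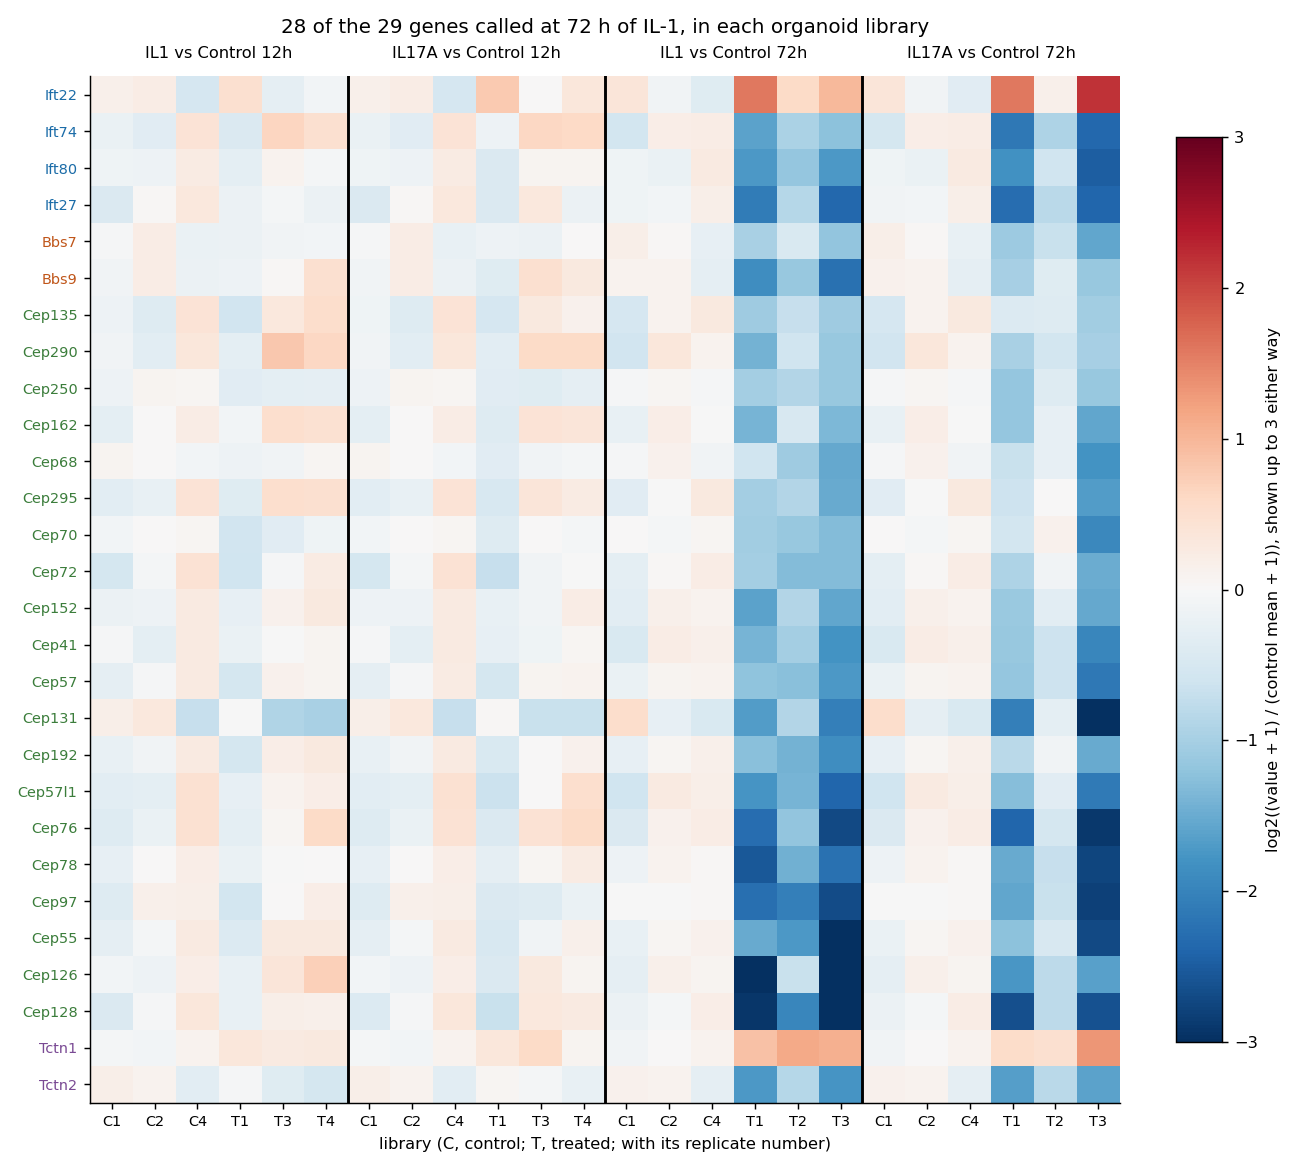
Log2 ratio of each organoid library to the mean of the controls of its table, for 28 of the 29 genes called at 72 h of IL-1 (rows, colored by family) in the 4 organoid tables (columns); blue is lower and red higher. Both 12 h blocks are pale except in single cells such as those of Cep131 and Cep290, the 3 IL-1 libraries at 72 h are blue for 26 genes and red for Ift22 and Tctn1, and IL-17A replicate 2 is paler than replicates 1 and 3.

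The same libraries were lower in mitosis genes. Their summed normalized count was 47800 to 57500 in the 72 h controls and 4720 to 15500 with IL-1, and 24 of 24 were lower (median -2.53). The sum of 7 epithelial markers was 99100 to 121000 in controls and 188000 to 197000 with IL-1. The part of cell division in the centriole differences was not tested. The fit above counted control replicates 2 and 4, which were close to each other, as separate libraries. With these 2 averaged, 19 members were called, and 2792 of 13040 genes in all. Without control replicate 2 there were 14 members and 2732 of 13046 genes. Without IL-1 replicate 2 there were 31 members and 5155 of 13003 genes.

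The change with time was tested as the difference of the IL-1 effect at 72 h from that at 12 h. It was called for 23 of 63 members, 22 lower at 72 h and 1 higher, against 25.7% of all genes and 14.1% lower. By family these were 16 of 35 Cep, 3 of 13 Ift, 1 of 8 Bbs and 3 of 7 transition zone genes, of which Tctn1 was the higher one. The largest was that of Cep128, with a difference of log2 fold changes of -2.91 (SE 0.52, adjusted p = 0.006). Since 2 control libraries were the same at both times, the controls are not independent. The other 72 h control, replicate 2, was close to replicate 4 (chi-square per gene 3.55). No 72 h control was thus clearly distinct from the 12 h ones, so the cytokine and the time in culture cannot be told apart. Replicates 3 and 4 of IL-1 at 12 h were also close to each other (3.21). The fit counted all of these as separate libraries, so its SE and adjusted p may be too small.

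With IL-17A at 72 h, the treated libraries spread widely and few members passed the test. Of 63 members 2 were called, Ift27 and Tctn2, both lower, against 10.8% of all genes in either direction and 4.18% lower. Ift27 was 184, 190 and 225 in controls and 40.3, 114 and 37.8 with IL-17A (log2 fold change -1.81, SE 0.45, adjusted p = 0.049). Tctn2 was 179, 175 and 136 against 51.5, 93.2 and 52.9 (-1.34, SE 0.33, adjusted p = 0.048). At an unadjusted p under 0.05 there were 28 of 63 members, against 38.5% of all genes. Every treated library was below every control for 26 of 63 members, against 23.6% of all genes. The family medians were -0.25 for Ift, -0.80 for Bbs, -0.79 for Cep and -0.55 for the transition zone genes, and all 8 Bbs genes were below 0.

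Library 2 of IL-17A stood apart from the other treated libraries. Its median log2 ratio to the controls over the Cep genes was -0.24, against -0.81 and -1.14, and its mitosis sum was 36000 against 17800 and 6060. Cep128 was 221, 239 and 289 in controls and 39.2, 145 and 40.3 with IL-17A (-2.0, SE 0.52, adjusted p = 0.052). Bbs7 was at -1.09 (adjusted p = 0.056), Tctn1 at 0.79 (adjusted p = 0.098), and Cep112 was 10.6, 15.2 and 16.9 against 41.4, 40.5 and 27.7 (1.30, adjusted p = 0.07). Without replicate 2 of IL-17A, 33 members were called, and 5369 of 13026 genes in all. Without any other single library, controls included, no member was called. DESeq2 called 21 members and 3847 of 13073 genes, and edgeR called 0 members and 1131 genes. The difference between 72 and 12 h was called for no member with IL-17A, against 0.0393% of all genes. At an unadjusted p under 0.05 there were 22 of 63 members, against 28.4% of all genes. DESeq2 called 6 members and 1752 of 12730 genes. The fit of this difference holds 2 control libraries at both times, and with the replicate block it called 3 members and 706 genes. Another fit held each distinct control library once and compared the IL-17A libraries at 72 h directly with those at 12 h. It called 13 members, all lower at 72 h, and 2963 of 12730 genes. Controls entered its spread but not its contrast, so it is not a test of the difference of effects. Whether the effects of IL-1 and IL-17A differ was not tested, and the tables of both share their controls.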

How the data were processed

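RNA-seq reads were aligned by the authors with STAR to mm10 and uniquely mapped reads were kept, per the study's methods. The authors deposited 12 tables of normalized counts (signal: reads per gene divided by a size factor). Dividing each column by its smallest step gave whole reads for 100.0% of values in every library. Strand of counting is not stated. Unnamed rows were not used and held up to 28.22% of reads in goblet cell libraries. Columns matching no sample numbered 0.

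Each table was fitted alone with limma 3.58.1 (trend) on log2(value + 1), over rows with a mean of at least 10, with Benjamini-Hochberg adjustment over all rows and a threshold of 0.05. Fold changes are on that scale and understate those of low genes. Differences between segments or times were fitted as interactions. edgeR 4.0.16, DESeq2 1.42.0, other pseudocounts, filters, left-out libraries and a replicate block were alternatives. The fit was tested on simulated data. Genes were placed by GENCODE M21 (GRCm38).

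The members and lists were chosen with earlier results of these data known. Named genes were, per comparison, up to 4 called rises and 4 falls of at least 1 on the log2 scale, the largest rise and fall per family whose groups did not overlap, 13 fixed genes, and the targeted and marker genes. Those chosen otherwise are named as such. A few single-gene results are not reported here; counts and medians include them.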

Additional observations from a re-analysis of the deposited data

Results flagged for a closer look

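Effects under the same contrast were compared between the 2 segments (4 fits) and between 12 and 72 h (2 fits), which gave 386 tests of members in limma. Of these, 23 were called, 22 of which are given here, all in the difference of the IL-1 effect at 72 h from that at 12 h, and no difference between segments was called. Values are differences of log2 fold changes, 72 h minus 12 h.

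Among the Cep genes the differences were -2.91 for Cep128, -2.69 for Cep126, -2.41 for Cep55, -2.24 for Cep97, -2.19 for Cep76, -2.01 for Cep78 and -1.86 for Cep57l1. They were -1.51 for Cep192, -1.41 for Cep152, -1.37 for Cep162, -1.36 for Cep295, -1.35 for Cep41, -1.29 for Cep57 and -1.01 for Cep68. The smallest were those of Cep70 (-0.81) and Cep250 (-0.71). Cep70 was among the members whose groups were already apart at 12 h, at -0.35, as was Tctn1 at 0.30.

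Among the Ift genes the differences were -1.65 for Ift27, -1.48 for Ift74 and -1.44 for Ift80. The Bbs family gave -1.86 for Bbs9. The transition zone genes gave -1.14 for Tctn2 and 0.72 for Tctn1. Tctn1 was higher at 72 h than at 12 h in its response, from 0.30 to 1.03. Both times share 2 control libraries with the same reads, and the other 72 h control was close to replicate 4. The cytokine and the time in culture therefore cannot be told apart. Replicates 3 and 4 of IL-1 at 12 h were also close to each other. All of these were counted as separate libraries, so the spread behind these calls may be too small. Of 24 mitosis genes, 21 were lower in the same difference (median -2.55), and their part in the values above was not tested.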

How the results depend on the processing

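Counts of called members depended on the processing as follows, with the cause not tested except where fewer samples or a stricter rule set it. In proximal GS4T against GWTT (8 members) there were 4 with edgeR, and 3 each with the replicate block, with sex as a term, with a fold minimum of 1 (log2) and with an unadjusted p plus that fold. Leaving out 1 library gave 0 to 5 there, 0 without either GS4T library and 3 and 5 without GWTT replicates 1 and 2. In distal GS4T (5) it gave 1 to 5, the lowest without GWTT replicate 1 and 2 without GWTT replicate 2. In goblet cells (0), DESeq2 gave 2 in proximal and 1 in distal GA3M2, the block 2 in proximal GA3M2, sex as a term 1 in distal GA3M2, and an unadjusted p plus fold 1 in distal GS4M2, 1 in proximal and 3 in distal GA3M2. Leaving out 1 library gave 0 to 5 in proximal GA3M2, 5 without GA3M2 replicate 1, and 0 to 1 in distal GA3M2. In GA3T (0), DESeq2 gave 3 and 2, and an unadjusted p plus fold 1 and 1. At 12 h (0) the block gave 1 with IL-1 and 3 with IL-17A.

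With IL-1 at 72 h (29) the block gave 7, averaging near-identical libraries 19, and leaving out 1 library 14 to 31, the lowest without control replicate 2, with 18 without control replicate 4. With IL-17A at 72 h (2) a pseudocount of 0.1 gave 1, one of 10 gave 4, no filter 1, DESeq2 21 and an unadjusted p plus fold 21. Upper-quartile rescaling, edgeR, the block, sex as a term and averaging each gave 0, and leaving out 1 library 0 to 33, the highest without IL-17A replicate 2. For the IL-17A time difference (0), DESeq2 gave 6 and the block 3. The fit with each distinct control once gave 13, but it compared treated libraries at 72 and 12 h directly. No called gene changed sign in the alternatives run; genes not called were not followed across them. The alternatives with sex as a term, averaging and distinct controls were chosen after seeing the data. Groups shared 2 replicate numbers at most, so numbers were not taken to pair libraries. Correlations of same-numbered deviations were 0.619 to 0.637 at 12 h, 0.184 and 0.2 with IL-1 and -0.0989 and -0.186 with IL-17A at 72 h, 0.0965 to 0.191 in stromal cells, 0.15 and 0.302 in GA3M2 and -0.0573 and -0.00221 in GS4M2. Members near 10 counts are limited by depth.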
